A study of Mus musculus with 4 samples.

Results

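Ctcf and 8 cohesin genes (Smc3, Rad21, Stag1, Nipbl, Mau2, Wapl, Pds5a and Pds5b) were examined in mouse embryonic stem cells. The question was where peaks called from pulldowns of DHX9, a helicase that unwinds RNA duplexes, lay on their RNA. Whether the peak calling used the control pulldowns described below is not stated. The genes were taken by name, with earlier results of these data known. A peak was counted for a gene when its midpoint lay in the gene body on mm10. This gave 297 of the 59563 peaks in the authors' list, in 9 of 21900 protein-coding genes. DHX9 was pulled down from UV-crosslinked cells of WT26, a male line of embryonic stem cells kept without feeder cells, with a C57BL/6x129sV background, and RNA fragments attached to it were sequenced (FLASH, a CLIP-seq method). There were 2 pulldowns with an antibody to DHX9 (DHX9-Rb) and 2 with control IgG (IgG-Rb), labelled as biological replicates A and B; all 4 came from this 1 line, with no treatment named. The authors deposited 1 peak list for the series of 4, and it names no sample. It gives a start, an end and a strand per peak and no height. So no value per sample, no depth and no DHX9 against IgG test could be had. The amount of a gene's RNA and the binding of DHX9 to it cannot be told apart. Of all protein-coding genes 22.8% held a peak. Of 8 embryonic stem cell markers 7 did, among them Pou5f1 with 12 and Nanog with 13; of 5 fibroblast markers only Fn1 did, with 63, and of 5 markers of differentiated lineages only Tubb3, with 7, which is 1 in 5 each and near the share over all genes.

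CTCF is a zinc finger protein that binds DNA and marks the boundaries of chromatin loops. Cohesin is a ring of SMC proteins closed by RAD21 and bound by a STAG subunit; NIPBL and MAU2 load it onto chromatin, WAPL and the PDS5 proteins take part in its release, and the loops it extrudes commonly end at CTCF sites. The measurements here concern the RNAs transcribed from these genes and not the proteins.

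Peaks stood closest to an annotated start in Mau2, Stag1, Pds5b and Wapl, and in Ctcf a peak on the opposite strand did. For these the bases before the start are shown, from RefSeq (GRCm38.p6), in the direction of the gene. The first 4 are the 250 bases up to the start at chr8:105636288-105636537 (plus), chr9:100643198-100643447 (plus), chr14:34673678-34673927 (plus) and chr5:150673577-150673826 (plus). The last is the whole stretch of 34 bases between the bodies of Mau2 and its neighbour Sugp1, a splicing-related gene, at chr8:70042735-70042768 (minus). Capitals mark matches on either strand to any of 4 promoter motifs, which were searched by their letters. The GC box was spelled GGGCGG. The motif named CCAAT box was searched under that name's 5 letters. For the TATA box the letters were TATAAA, and for the core of the NRF1 motif TGCGCA.
Ctcf: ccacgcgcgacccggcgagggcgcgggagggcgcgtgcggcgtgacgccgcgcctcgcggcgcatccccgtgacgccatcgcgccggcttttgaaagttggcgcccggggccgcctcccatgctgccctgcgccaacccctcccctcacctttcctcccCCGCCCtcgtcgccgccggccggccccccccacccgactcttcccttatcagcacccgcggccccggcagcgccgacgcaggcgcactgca
Stag1: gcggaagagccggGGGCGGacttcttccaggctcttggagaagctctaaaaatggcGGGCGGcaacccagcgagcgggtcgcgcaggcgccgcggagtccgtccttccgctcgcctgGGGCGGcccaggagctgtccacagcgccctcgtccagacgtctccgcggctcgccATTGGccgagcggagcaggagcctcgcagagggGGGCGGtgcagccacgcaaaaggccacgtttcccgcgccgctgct
Wapl: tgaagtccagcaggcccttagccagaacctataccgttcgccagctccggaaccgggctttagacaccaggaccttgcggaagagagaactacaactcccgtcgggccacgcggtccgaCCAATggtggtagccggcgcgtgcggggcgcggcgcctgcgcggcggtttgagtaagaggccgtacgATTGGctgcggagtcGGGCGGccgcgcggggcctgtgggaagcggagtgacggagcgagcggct
Pds5b: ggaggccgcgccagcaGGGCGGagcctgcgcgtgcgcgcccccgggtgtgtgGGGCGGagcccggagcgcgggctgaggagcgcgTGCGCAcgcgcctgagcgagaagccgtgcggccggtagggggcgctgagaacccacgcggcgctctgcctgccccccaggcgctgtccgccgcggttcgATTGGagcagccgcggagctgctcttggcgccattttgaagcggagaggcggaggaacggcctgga
Mau2 to Sugp1: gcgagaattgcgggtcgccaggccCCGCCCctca

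All 4 windows held a GC box, as did 42.6% of 21263 protein-coding windows of 250 bases, and so did the stretch between Mau2 and Sugp1. Stag1 had 4 GC boxes and Pds5b 2. A CCAAT box stood once in Stag1 and Pds5b and at 2 places in Wapl (35.4% of windows held one), the NRF1 core only in Pds5b (8.06% of windows), and no TATA box in any (11.6% of windows). The 4 longer windows held 31 to 40 CpG dinucleotides, against a median of 10 over all windows. These matches describe letters in a window and not bound sites.

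Every one of the 9 genes held peaks, from 4 in Smc3 to 64 in Pds5a, and each had at least 3. In the length range of the 9 genes, 28.2 to 361 kb, 35.1% held at least 1 and 24.0% at least 3. Density ran from 0.0804 peaks per kb in Stag1 to 1.21 in Mau2, with a median of 0.550, and 0.263 without the 2 genes on chromosome 8. Protein-coding genes of the same range with a peak had a median of 0.0914 peaks per kb. Set against protein-coding genes of like length (from 0.8 times its own length to the inverse of that ratio), each gene but Smc3 lay above the 90th percentile of density. This percentile counts genes without a peak: from 21.6% (class of Stag1) to 38.5% (class of Wapl) held one. Among genes of like length with a peak, a larger share was denser for every gene, such as 219 of 855 for Rad21 and 51 of 212 for Nipbl. With only peaks in no other gene, Pds5b fell below its 90th percentile, at 0.0657 per kb of its whole body against 0.133. Then 7 genes lay above theirs, Nipbl narrowly at 0.0570 against 0.0557. Here the percentiles still counted all peaks of the genes of like length, shared ones included, so the 2 sides were not measured alike. The 9 genes were chosen with earlier results of these data known. Their counts and percentiles may thus reflect the choice of genes and are a description only. No test was made of these 9 genes as a group.

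**Figure D1:**
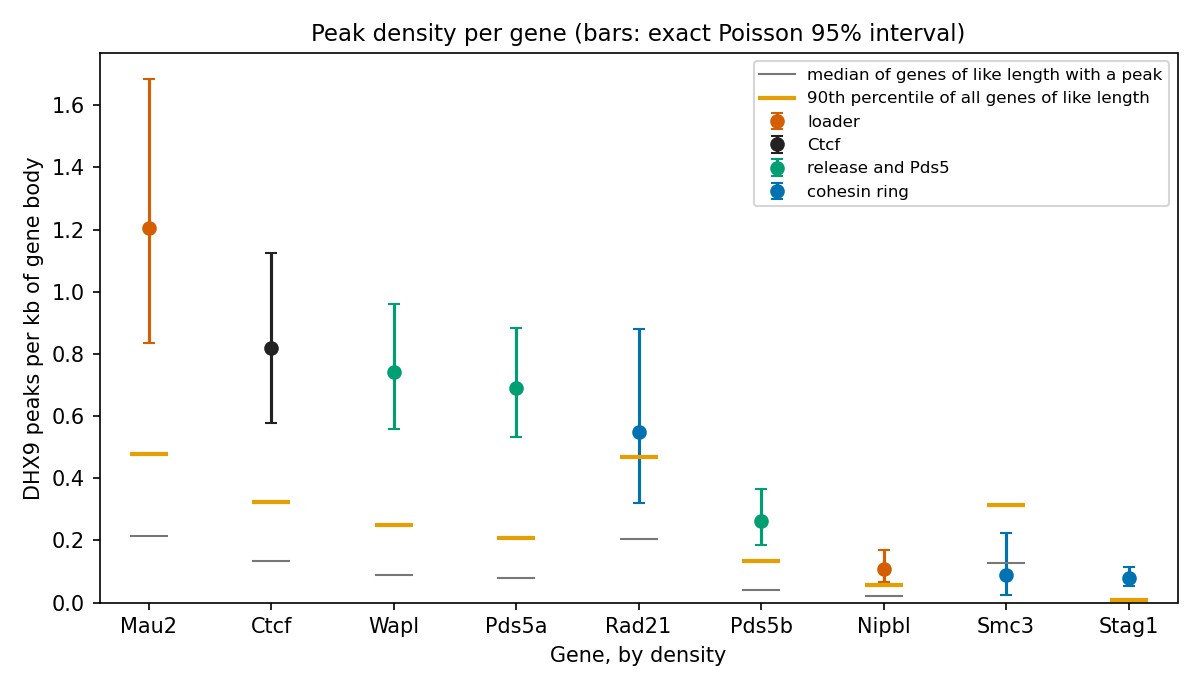
Peaks per kb of gene body (vertical axis) for each of the 9 genes, in order of density; points are coloured by role, bars are exact Poisson 95% intervals, grey marks are the median of genes of like length that hold a peak, and orange marks the 90th percentile of all genes of like length. Mau2 stands highest at 1.21 and Stag1 lowest at 0.0804, and Smc3 is the gene below its grey mark.

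The intervals are exact Poisson 95% intervals on the number of peaks and cover counting error only. Peaks lie in runs, so the intervals are too narrow. From the top, the order was Mau2, Ctcf, Wapl, Pds5a, Rad21, Pds5b, Nipbl, Smc3 and Stag1. Of the 8 steps between neighbours in this order, Pds5b to Nipbl was the one where the intervals did not overlap; the intervals of the other 7 neighbouring pairs overlapped, which does not show that they are alike, and no test of the differences was run. That gap rests on the peaks that Pds5b shares with another gene, as described below. Nipbl, the lower of the pair, also shares peaks, and these raise its density: 0.108 per kb in all and 0.0607 outside the overlap.

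The Ctcf RNA held dense peaks in its middle and no sense peak at either end. Ctcf (chr8:105636474-105682922, plus strand, 46.5 kb) held 38 peaks, or 0.818 per kb (0.579 to 1.12). Of 2072 genes of like length, 727 held a peak and 74 were denser; on chromosome 8 itself 7 of 98 were denser. Chromosome 8 was rich in peaks: 43.0% of its genes in the length range held one, at a median of 0.190 per kb. The 37 plus-strand peaks of Ctcf began 9.08 kb from the 5′ end of the gene and stopped 12.9 kb short of its 3′ end. Their longest run, with gaps under 500 bases, was 13 peaks over 5.68 kb (chr8:105649822-105655505), followed by 9 peaks over 3.62 kb. Within the body lies Gm5915, a transcribed pseudogene, which shared 2 of the 37 peaks.

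The remaining peak of Ctcf was on the minus strand, against the gene, and stood at its start. It was 203 bases wide (chr8:105636567-105636769) and began 29 bases after the RefSeq start of Ctcf. The bases of the Ctcf start that it covers, up to the end of the promoter window, are shown on the plus strand.
Ctcf under the minus-strand peak: tgtggagcgattaaaccgtgc
This place also belongs to Gm5914, a long noncoding RNA gene on the minus strand that overlaps Ctcf by 1001 bases. The peak lay 581 bases downstream of the nearer of the Gm5914 starts, on the strand of Gm5914. Gm5914 held 17 peaks, all on the minus strand, and 14 of the peaks on this strand lay within 10 kb upstream of Ctcf.

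**Figure D2:**
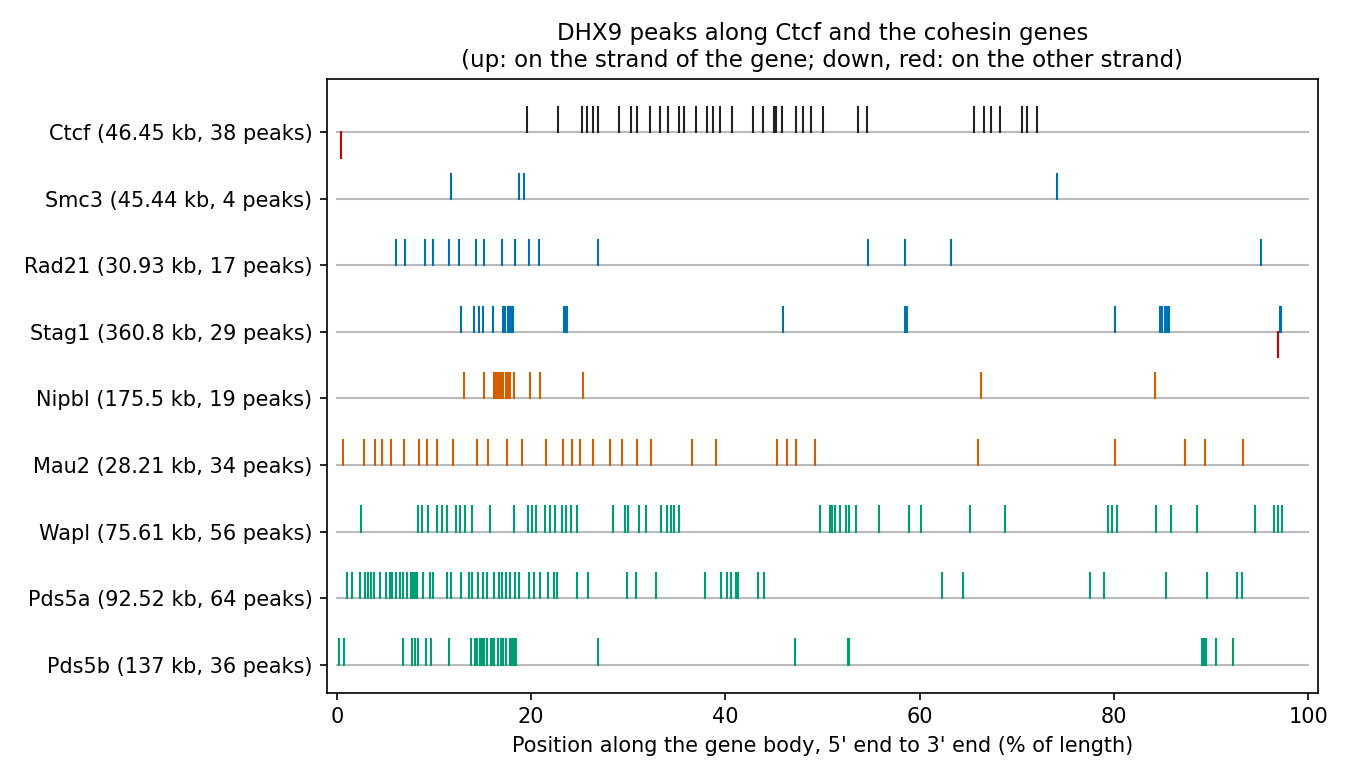
Each tick is 1 DHX9 peak at its midpoint, placed along the gene body from the 5′ end to the 3′ end as a percent of gene length (horizontal axis), with 1 line per gene. Ticks upward are on the strand of the gene and red ticks downward on the other strand; these are 1 peak at the start of Ctcf and 1 near the end of Stag1, against 295 upward.

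The genes of the cohesin ring differed widely among themselves. Rad21, the subunit that closes the ring and is cut by separase in mitosis, held 17 peaks over 30.9 kb (chr15:51962604-51993538), or 0.550 per kb (0.320 to 0.880), all on the minus strand. Smc3, an SMC subunit with an ATPase head, held 4 over 45.4 kb (chr19:53600396-53645831), or 0.0880 per kb (0.0240 to 0.225), all on the plus strand. The density of Rad21 was 6.24 times that of Smc3, with intervals that did not overlap. Ctcf and Smc3 have almost the same length, and Ctcf had 9.29 times the density, again with separate intervals.

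In Rad21, 12 of the 17 peaks formed 1 run of 4.73 kb that began 1.82 kb from the 5′ end (chr15:51986987-51991714). A stretch of 9.76 kb towards the 3′ end was free of peaks, and 1 peak followed it. The predicted gene Gm52217 shared 2 of the peaks in the run. In Smc3 the peaks were single or paired: chr19:53605618-53605856, chr19:53608867-53608991, chr19:53609081-53609215 and chr19:53633975-53634188. The first 3 lay within 8.82 kb of the 5′ end, and 24.8 kb without a peak separated them from the last. Of 2073 genes of like length 722 held a peak and 425 were denser than Smc3, so that it lay below the median of those with a peak, 0.129 per kb.

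Stag1, 1 of the STAG subunits that bind RAD21, is the longest of the 9 genes at 361 kb (chr9:100597709-100958544) and had the lowest density. It held 29 peaks, or 0.0804 per kb (0.0538 to 0.115). Long genes had few peaks per kb, and only 67 of 310 genes of like length held any; 10 of the 310 were denser than Stag1, and none of the 17 on chromosome 9. No peak lay in the first 45.9 kb of the body. The first one, at chr9:100643613-100643752, began 165 bases after the RefSeq start in the promoter table, which stands 45.7 kb into the body. From the 5′ end to 85.5 kb there were 17 peaks, then 80.1 kb without any, and then 12 in small groups. The single minus-strand peak, 71 bases wide, was at chr9:100947448-100947518, near the 3′ end. Counted from the RefSeq start, the density was 0.0920 per kb. Beyond that end, within 10 kb, were 6 more minus-strand peaks, all outside annotated genes.

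The genes of the cohesin loader lay far apart in density. Mau2 held 34 peaks over 28.2 kb (chr8:70014527-70042734), or 1.21 per kb (0.835 to 1.68), all on the minus strand, and 8184 bases of its body, 29.0%, were under peaks. Of 2657 genes of like length 70 were denser, and of the 146 on chromosome 8 only 1 was. Nipbl, which encodes the large loader subunit, held 19 peaks over 175.5 kb (chr15:8289824-8465315), or 0.108 per kb (0.0652 to 0.169), all on the minus strand, with 1.66% of bases covered. The ratio of Mau2 to Nipbl was 11.1. Of 698 genes of the length of Nipbl, 212 held a peak and 51 were denser. In the class of Mau2, 857 of the 2657 held a peak. Most genes of both classes held none, so holding any peak put a gene above most of its class.

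The run at the 5′ end of Mau2 held more peaks than any run in the other 8 genes, with 23 of its 34 peaks over 9.08 kb (chr8:70033550-70042626). It started 108 bases after the start of the gene and included the widest peak of all 297, 561 bases (chr8:70033747-70034307). On the other side of the 34 bases shown above, Sugp1 runs on the plus strand. It held 15 peaks, all on the plus strand, the nearest 408 bases from the Mau2 body. Peaks of the pair thus pointed away from each other on opposite strands, and none crossed into the neighbour.

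In Nipbl, 17 of 19 peaks lay between 22.9 and 44.5 kb from the 5′ end, and 12 of these formed 1 run of 3.79 kb (chr15:8433235-8437027). After them came 71.8 kb without a peak and then 2 single peaks. The predicted gene LOC102634078 overlaps 10.8 kb of this part of Nipbl and shared 9 of its peaks, at 0.837 per kb. The other 10 peaks gave 0.0607 per kb (0.0291 to 0.112) over the 165 kb outside that gene. Nipbl also had the narrowest peaks, with a median width of 136 bases.

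Pds5a and Wapl, genes of release factors, each held more peaks than any of the other 7 genes; Pds5b held fewer than Ctcf. Pds5a had 64 over 92.5 kb (chr5:65605719-65698236), or 0.692 per kb (0.533 to 0.883), all on the minus strand. Wapl, which encodes the factor that opens the ring, had 56 over 75.6 kb (chr14:34672379-34747983), or 0.741 per kb (0.560 to 0.962), all on the plus strand. Pds5b had 36 over 137 kb (chr5:150673713-150810669), or 0.263 per kb (0.184 to 0.364), all on the plus strand. In the length classes of Pds5a, Wapl and Pds5b, 41 of 1395, 48 of 1533 and 51 of 937 genes were denser. In these classes 501, 590 and 319 genes held a peak.

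**Figure D3:**
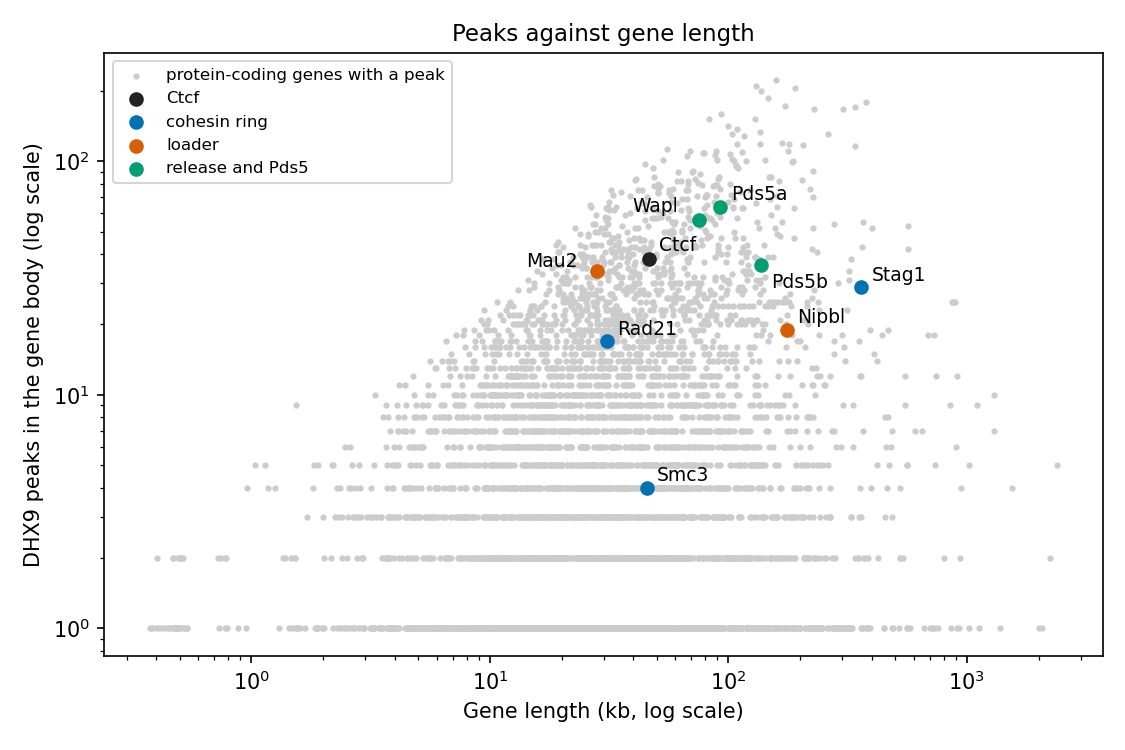
Number of peaks (vertical axis, log scale) against gene length in kb (horizontal axis, log scale) for protein-coding genes with at least 1 peak in grey, with the 9 genes coloured by role and named. Pds5a and Wapl lie among the genes with most peaks for their length, and Smc3, with 4 peaks over 45.4 kb, lies low.

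The paralogues Pds5a and Pds5b differed 2.63 times in density, with intervals that did not overlap. In Pds5a peaks ran on from close to the start: the first began 874 bases in, the longest run held 20 peaks over 7.13 kb (chr5:65688953-65696082), and 56 of the 64 preceded a free stretch of 16.7 kb. In Pds5b the first peak (chr5:150673992-150674151) began 165 bases after the RefSeq start, and a run of 18 peaks covered 6.53 kb (chr5:150692540-150699066). Then peaks became rare: 31 preceded a free stretch of 49.5 kb and 5 followed it. Of the 36 peaks in Pds5b, 27 lay in its first 29.3 kb, which the predicted gene Gm40353 shares. Gm40353 lies on the same strand and starts 2649 bases upstream, so these 27 peaks cannot be told apart between the genes. Outside the overlap Pds5b had 9 peaks, or 0.0836 per kb (0.0382 to 0.159), which overlaps the interval of Nipbl.

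Peaks in Wapl were spread in many groups along the gene. Its 56 peaks fell into 23 runs or single peaks, parted by gaps of 500 bases or more, and the longest run held 10, or 17.9% of the peaks (chr14:34687205-34691145). The longest stretch without a peak was 10.9 kb, or 14.4% of the body. The first peak (chr14:34674142-34674348) began 214 bases after the RefSeq start. It also lay in 5830448L01Rik, a long noncoding RNA gene on the minus strand, but the peak was on the plus strand, as Wapl is. The last peak ended 1.82 kb before the 3′ end of the gene.

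Strand followed the gene almost throughout. Of the 297 peaks 295 (99.3%, Wilson 95% interval 97.6 to 99.8%) were on the main strand of their gene, and 7 of the 9 genes had no peak on the other. For the 7 genes with a strand in the promoter table, 259 of 261 peaks (99.2%) were on that strand; for Rad21 and Nipbl the strand was taken from the peaks. Over 2053 other protein-coding genes with at least 5 peaks and a listed strand, 98.5% of peaks were on the strand of the gene.

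Peaks were gathered in the 5′ part of most of these RNAs. By the first 20% of the body this was least so in Wapl and Ctcf. By the first 50% it was least so in Wapl (60.7% of peaks) and Stag1 (62.1%), while Ctcf had 73.7% there. In the 8 genes with at least 5 peaks, 135 of 293 peaks (46.1%, Wilson 95% interval 40.5 to 51.8%) lay in the first 20% of the body and 32 (10.9%, 7.84 to 15.0%) in the last 20%. Peaks lie in runs and the genes differ, so these intervals are too narrow. By gene, the first 20% held 78.9% of peaks in Nipbl, 27 of the 36 in Pds5b, 64.7% in Rad21, 59.4% in Pds5a, 48.3% in Stag1, 41.2% in Mau2 and 25.0% in Wapl. In Ctcf it held 5.26%, 2 of 38, of which 1 was the minus-strand peak. The mean per gene was 49.7 ± 25.3% (SD, n = 8 genes), and in 1456 other genes of the length range with at least 5 peaks it was 29.4 ± 26.8% (SD). All 8 genes had over 50% of their peaks in the first 50% of the body, as did 66.3% of the 1456. With only peaks in no other gene, this held for 7 of the 8 and was lost for Pds5b, where 0 of 9 such peaks lay in the first 20% and 2 in the first 50%. In Nipbl 6 of 10 such peaks lay in the first 20%, and over the 8 genes together the share there was 37.8%. That pooled share stands beside the pooled 46.1%. Both means per gene above count shared peaks, and no mean was computed without them. The annotation used gives no exons, so exonic and intronic peaks were not separated.

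**Figure D4:**
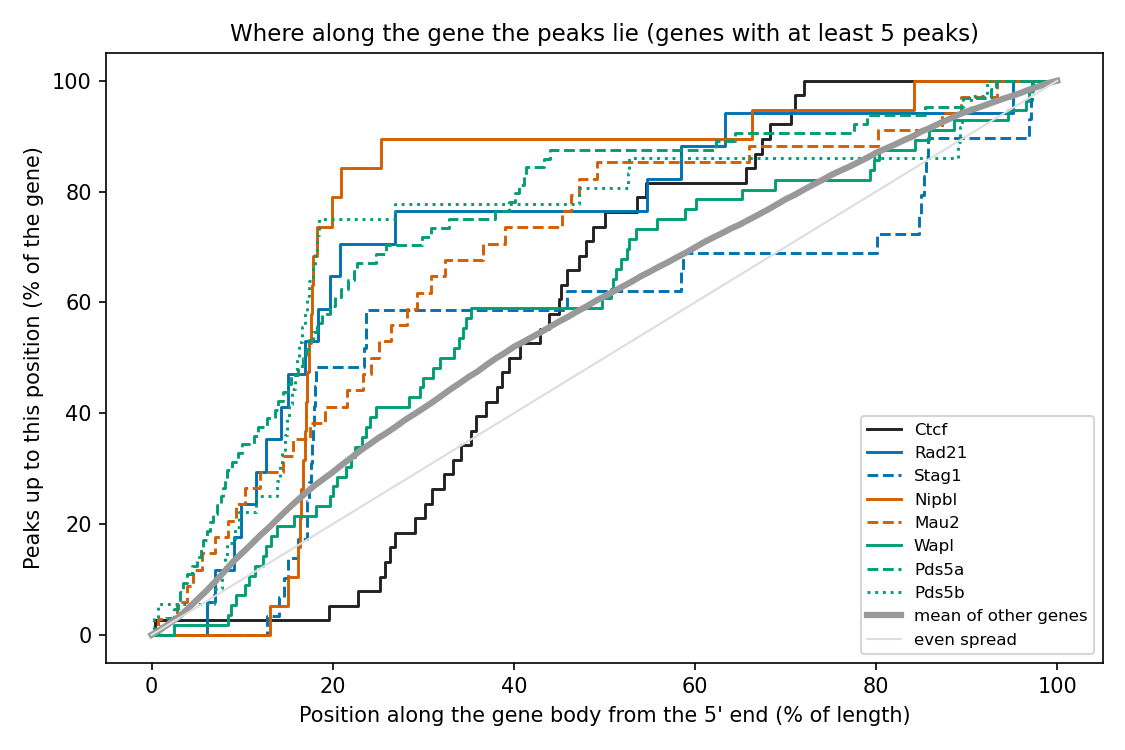
Share of each gene's peaks (vertical axis, percent) found up to a given position from the 5′ end (horizontal axis, percent of the body) for the 8 genes with at least 5 peaks; the thick grey line is the mean of 1456 other genes and the thin line an even spread. Nipbl, Pds5b and Rad21 rise steeply before or near 20%, and Ctcf stays at 5.26% there.

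Of the 7 genes with a start in the promoter table, Mau2, Stag1, Pds5b and Wapl had a sense peak within 500 bases after it, at 108, 165, 165 and 214 bases. The peak of Pds5b also lay in Gm40353, on the same strand, and cannot be told apart between the genes. The others began at 874 bases (Pds5a), 5222 (Smc3) and 9011 (Ctcf). Among 3814 other protein-coding genes with a listed start and a sense peak, the median distance was 4018 bases, with quartiles of 1025 and 12301, and 16.6% had a peak within 500 bases. These distances take no account of how many peaks a gene held. Mau2, Stag1, Pds5b and Wapl held 29 to 56, against a median of 6 over genes of the length range with a peak.

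Peaks in the 9 genes had a median width of 183 bases (quartiles 143 and 253), against 196 (146 and 268) over the whole list. By gene, the median width ran from 136 bases in Nipbl and 162 in Stag1 to 225 in Mau2.

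The other genes of the cohesin pathway, 16 listed from textbook knowledge, were unequal. Of these 9 held a peak, beside 22.8% of all protein-coding genes, and the median over the 9 with a peak was 0.0752 per kb. At least 3 peaks were held by 5. Of protein-coding genes of 28.2 to 361 kb, 24.0% held at least 3, but several of the 16 are shorter than that. Espl1, the separase that cuts RAD21, held 32 peaks at 1.14 per kb, and Cdca5, the sororin that protects cohesin from WAPL, 8 at 1.20. Stag2, the other somatic STAG gene, and Esco2, an acetyltransferase for SMC3, held 6 each. Smc1a, the partner of SMC3 in the ring, held 1. The meiotic genes Rec8 and Rad21l, the CTCF paralogue Ctcfl, and Sgo2a, Hdac8, Pttg1 and Wiz held none. Stag1 had 1.71 times the density of Stag2 and Smc3 4.01 times that of Smc1a, and in both pairs the intervals overlapped; the differences were not tested. Smc1a, Stag2 and Hdac8 lie on the X chromosome, of which these male cells carry a single copy. Whether this bears on their peak counts was not tested.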

How the data were processed

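The deposited file is 1 list of peaks for the series of 4 pulldowns. Its name holds DHX9-Rb and no sample is named in it, so which pulldowns gave the peaks is not stated. Per the file's source column, the authors called the peaks with PEAKachu; how the caller was set and whether it used the IgG control is not stated in the labels or the file. Bowtie2 2.2.6 and the builds hg19 and mm10 are named in the submitters' processing notes, and mm10 was used for this mouse list. Per the labels' protocols, random adapter bases served to merge PCR duplicates. The score field is empty, so the depth behind a peak is unknown.

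Peaks were assigned by midpoint to genes of RefSeq GRCm38.p6, the assembly behind mm10 (49997 placed genes, 21900 of them protein-coding). All 9 genes matched by symbol. Strand and start came from the RefSeq promoter table for 7 genes; Rad21 and Nipbl took the strand of their peaks. Runs are same-strand peaks with gaps under 500 bases. Wilson and exact Poisson intervals (95%) cover counting error only. The counting was tested on simulated data. Python 3.11.15, pandas 2.3.3 and scipy 1.17.1 were used.

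All 9 genes were named, with up to 4 genes with most peaks and the genes without peaks of each further list. The members, lists and settings were chosen with earlier results of these data known.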

Additional observations from a re-analysis of the deposited data

How the results depend on the processing

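Of 38 values recomputed for the main results, 28 were classed as close to the value reported and 10 as moved. The class of close values was wide for the total of 297 peaks. It took in 260 with peaks within 50 bases merged, 255 with peaks in no other gene and 225 without the 2 genes on chromosome 8. With only peaks at least as wide as the median peak of the list, the 9 genes together held 134 peaks, the median density was 0.259 per kb, 53.0% of peaks lay in the first 20% of the body, and 5 of the other cohesin pathway genes held a peak. This filter removes peaks by construction, and no share over all protein-coding genes was counted with it. With at least 3 peaks per gene, 5 of the other cohesin pathway genes and 7 of the condensin and SMC5/6 genes remained. Of protein-coding genes in the length range of the 9 genes, 24.0% held at least 3. Without the 2 genes on chromosome 8 the median density was 0.263 per kb. Counting only peaks in no other gene, 37.8% lay in the first 20%. This removes 27 peaks of Pds5b and 9 of Nipbl. Pds5b then had most of its peaks in the last 50% of the body and lay below its 90th percentile of density. That percentile still counted the shared peaks of the genes of like length. The first 10% of the body held 16.0% of peaks and the first 50% held 76.5%. All 9 genes held a peak under each setting run, and at least 3 in all of them but the wide peaks, where Smc3 had 2. Of 45 densities of single genes, 10 left their counting interval, 8 of them with the wide peaks and 2 (Pds5b and Nipbl) with peaks in no other gene. In density, Mau2 and Ctcf stayed first and second under each setting ranked, while the lowest gene was Stag1 or Nipbl.

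The list holds no score and no value per pulldown, so no stricter threshold was run, no replicate could be left out, and the error between pulldowns is unknown. No paired analysis was possible because the deposited list has no columns for samples. The settings without the chromosome 8 genes, without Pds5a, from the listed start sites and for the further gene lists, and the use of peaks in no other gene for position and for the 90th percentile, were chosen after seeing the data.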

Other observations

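Genes of the other SMC complexes and of proteins that work beside CTCF were read in the same list. Of 16 condensin and SMC5/6 genes 11 held a peak, beside 22.8% of all protein-coding genes. The most were in Ncaph2, a condensin II subunit gene, with 15 peaks at 0.876 per kb, in Nsmce4a with 12, in Ncapd3 with 10 and in Ncapd2 with 8. Smc5 and Smc6 had none, nor had Ncapg2, Nsmce1 and Nsmce3. Of 13 genes for CTCF partners and architectural proteins 11 held a peak, beside the same 22.8%, with a median of 0.434 per kb over those 11. Protein-coding genes of 28.2 to 361 kb with a peak had a median of 0.0914, but this is not a comparison at like length. Several of the 11 are shorter than that range, such as Maz at 5.74 kb, Ddx5 at 8.83 kb and Npm1 at 11.6 kb. Shorter genes had more peaks per kb: those of the length of Mau2 with a peak had a median of 0.215. Adnp had 30 at 1.15 per kb, the remodeller genes Bptf and Chd8 28 and 26, and Parp1 23. Vezf1 and Satb1 had none. No test was made between these lists, and the amount of RNA of each gene was not measured.

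Around the 9 genes, peaks within 10 kb outside the body were all on the opposite strand. There were 14 upstream of Ctcf and 7 upstream of Mau2, all in annotated genes. There were also 6 downstream of Stag1 and 1 upstream of Rad21, the latter 4758 bases away, and these 7 lay in no annotated gene. The other 5 genes had none within 10 kb on either side.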
